A study of Mus musculus with 2 samples.

Results

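The 8 genes described here encode RNA-binding proteins that control the lifetime of cytokine mRNAs, and they were taken by symbol (Zfp36, Zfp36l1, Zfp36l2, Khsrp, Zc3h12a, Rc3h1, Rc3h2 and Elavl1) from the 23284 genes measured by RNA-seq. All 8 were present in both libraries. The cells were leukemic stem cells (LSCs) from mice with a BCR-ABL-driven disease that models chronic myeloid leukemia (CML). LSK cells, which are negative for lineage markers and positive for Sca-1 and c-Kit, received human BCR-ABL and GFP from a retrovirus and were given with C57BL/6SJL marrow to C57BL/6SJL recipients after lethal irradiation. Both groups carried BCR-ABL, and donors were C57BL/6J mice, either WT or STAP-1 KO. GFP+ CD45.2+ LSK cells were sorted 11 days after this first transplantation, mice of 8 to 14 weeks were used throughout, and the number of mice behind a library is not given in the sources used here. There was 1 library per genotype, so the genotype cannot be told apart from differences of mouse, sort or library, and no p-value is given.

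Many cytokine mRNAs are short-lived because their 3′ UTRs carry AU-rich elements, runs of overlapping AUUUA, or small stem-loops. Tristetraprolin (Zfp36) and its relatives Zfp36l1 and Zfp36l2 bind AU-rich elements through a pair of CCCH zinc fingers and recruit the CCR4-NOT deadenylase, and KSRP (Khsrp) binds such elements through KH domains and promotes decay. Regnase-1 (Zc3h12a) is an endonuclease and the roquins (Rc3h1 and Rc3h2) are adaptors, all of which act on stem-loops. HuR (Elavl1) binds AU-rich elements and is known for stabilizing the mRNAs that carry them.

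The elements themselves are shown first, because the mRNAs of the decay factors carry some of the sites that the proteins recognize. Sequences are from the longest coding transcript of each gene in GENCODE M21 (GRCm38), 5′ to 3′, written as DNA. In the first set, the capitals mark the nonamer TTATTTATT, the preferred site of the Zfp36 family, in the stretch of the 3′ UTR with the most of it. The first 2 are cytokine targets and the other 4 are decay factors.
Tnf, chr17:35199680-35199709, minus strand: taTTATTTATTATTTATTTATTATTTATTt
Csf2, chr11:54247323-54247352, minus strand: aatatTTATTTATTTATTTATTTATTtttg
Elavl1, chr8:4285775-4285804, minus strand: atTTATTTATTTATTTATTtTTATTTATTt
Zfp36, chr7:28376951-28376980, minus strand: ttatgacgactTTATTTATTgtattaagat
Zfp36l1, chr12:80108167-80108196, minus strand: aaactgttggaTTATTTATTttagaaattc
Zfp36l2, chr17:84184914-84184943, minus strand: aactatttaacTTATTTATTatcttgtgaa

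The stretch of Elavl1 holds 4 nonamers, of which the first 3 overlap, and that of Tnf also holds 4. Over the whole 3′ UTR of 4218 bases, Elavl1 has 8 nonamers, and 17 of the 19861 genes with an annotated 3′ UTR have as many or more. Zfp36, Zfp36l1, Zfp36l2, Rc3h1 and Rc3h2 have 1 nonamer each, and Zc3h12a and Khsrp have none. The nonamer is in 7.63% of all 3′ UTRs, and among those within 20% of the length of the Zfp36 3′ UTR (774 bases) it is in 4.55%. The 3′ UTR of Khsrp is also poor in the simple pentamer ATTTA, with 1 in 1642 bases, whereas that of Zfp36l1 has 9 in 1835 bases.

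In the second set, the capitals mark the paired arms of a stem of at least 5 Watson-Crick pairs around a loop of 3 bases that reads pyrimidine, purine, pyrimidine, the form that roquins and Regnase-1 are known to recognize.
Tnf, chr17:35199580-35199604, minus strand: gacatGTTTTCtgtGAAAACggagc
Rc3h2, chr2:37373804-37373828, minus strand: taattAACTTCtgtGAAGTTgttta
Zc3h12a, chr4:125118658-125118682, minus strand: cgagATTTAAAtatTTTAAATgaaa

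The Tnf stem has 6 pairs, and the longest such stem of Rc3h2 has 6 pairs and the same loop letters. The 3′ UTR of Zc3h12a holds 3 such stems in 856 bases, the longest with 7 pairs, where 16.3% of 3′ UTRs of like length hold any. Rc3h1 has 4 and Rc3h2 has 2 in their long 3′ UTRs, and 70.6% and 62.6% of 3′ UTRs of like length hold at least 1. The other members have none. These are matches of letters, and binding was not measured. The genes without a sequence above lie at chr1:160906418-160974978 on the plus strand (Rc3h1) and chr17:57021051-57031522 on the minus strand (Khsrp).

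Expression is given as FPKM, a fragment count divided by transcript length and by library size, which allows levels of different genes to be set side by side. The reads behind a value were inferred from the spacing of low values, at an effective depth of 7500000 (WT) and 10470000 (STAP-1 KO) reads. The 95% intervals below cover the counting of these reads only. The targeted gene, Stap1, had 62.0 FPKM in WT LSCs against 0.309 FPKM in STAP-1 KO LSCs.

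Across the decay factors, the STAP-1 KO library had lower values for 7 of 8 genes and a higher value for Elavl1. At the 2-fold cut-off that the study used, taken on ratios without a pseudocount and with at least 0.1 FPKM in both libraries, 4 of the 8 (Zfp36l1, Zfp36l2, Zc3h12a and Rc3h2) were lower and none was higher. Of all 12507 genes that could be compared, 22.9% were lower and 12.3% were higher by this rule. At a cut-off of 4-fold, Zfp36l1 alone of the 8 was lower, as were 8.56% of all genes compared, and at 1.5-fold 7 of the 8 were lower, as were 32.8%. The median log2 ratio of the 8 genes, taken as log2((STAP-1 KO + 0.1)/(WT + 0.1)), was -1.30, beside -0.04 for the 10974 expressed genes, those whose mean was 1 FPKM or more. In a sorted population, fewer cells of a type and less RNA per cell cannot be told apart.

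**Figure D1:**
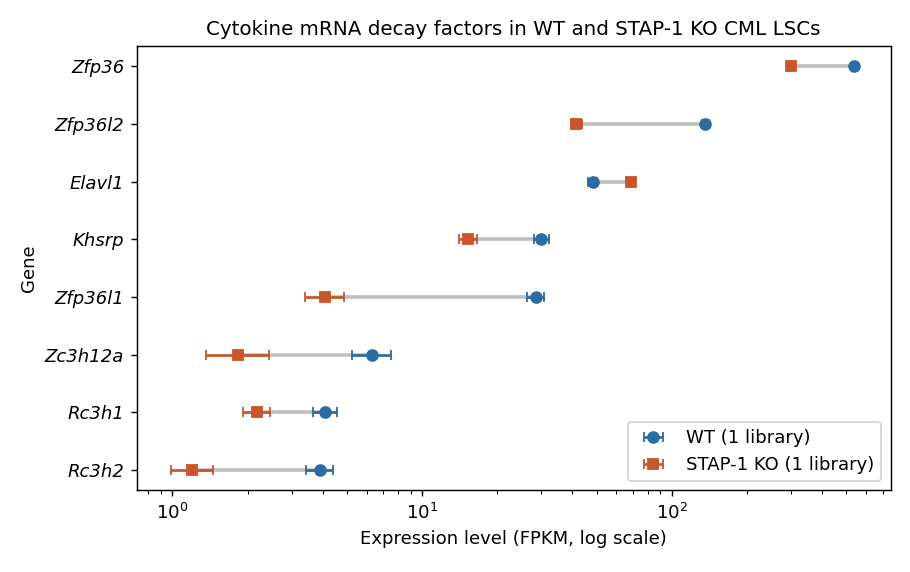
Expression level (FPKM, log scale) of the 8 decay factors in the WT library (circles) and the STAP-1 KO library (squares), with 95% counting intervals from estimated reads. Elavl1 is the only gene whose STAP-1 KO value (68.9 FPKM) lies to the right of its WT value (48.2 FPKM), and Zfp36l1 has the widest gap.

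Among the destabilizing AU-rich binders, Zfp36 had by far the highest level, with 538 FPKM in WT LSCs against 299.8 FPKM in STAP-1 KO LSCs. It ranked above 98.9% of expressed genes in WT LSCs and above 97.3% in STAP-1 KO LSCs. Its value was 1.80-fold lower in STAP-1 KO LSCs (95% counting interval from 1.74 to 1.85), which is short of the cut-off. Zfp36l2 had 136 FPKM in WT LSCs against 41.5 FPKM in STAP-1 KO LSCs, 3.29-fold lower (from 3.09 to 3.50). Zfp36l1 had 28.5 FPKM in WT LSCs against 4.09 FPKM in STAP-1 KO LSCs, 6.96-fold lower (from 5.72 to 8.57), the largest difference of the 8. Only 3.84% of expressed genes had a lower log2 ratio than Zfp36l1 (-2.77).

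With reads estimated from the longest transcript, the ratio intervals of the 3 Zfp36 paralogues did not overlap. With the shortest coding transcript of Zfp36l1 its log2 interval (from -4.67 to -1.02) holds that of Zfp36l2 (from -1.81 to -1.63), so that those 2 are apart only under the longer lengths. Their summed level was 703 FPKM in WT LSCs against 345 FPKM in STAP-1 KO LSCs. Zfp36 made up 76.6% of this sum in WT LSCs and 86.8% in STAP-1 KO LSCs, Zfp36l2 19.4% and 12%, and Zfp36l1 4.05% and 1.19%. These shares are ratios within a library and do not depend on how the libraries were scaled.

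Khsrp had 30.05 FPKM in WT LSCs against 15.3 FPKM in STAP-1 KO LSCs, 1.97-fold lower, and the counting interval of this ratio (from 1.77 to 2.19) spans the cut-off. Its log2 ratio was -0.97, and 22.9% of expressed genes had a lower one.

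The stem-loop binders had low levels in both libraries. Zc3h12a, the Regnase-1 gene, had 6.32 FPKM in WT LSCs against 1.84 FPKM in STAP-1 KO LSCs, which rest on about 120 and 49 estimated reads. Its value was 3.44-fold lower in STAP-1 KO LSCs (from 2.44 to 4.88). Rc3h2 (roquin-2) had 3.90 FPKM in WT LSCs against 1.20 FPKM in STAP-1 KO LSCs, 3.25-fold lower (from 2.58 to 4.09). Rc3h1 (roquin-1) had 4.10 and 2.18 FPKM, 1.88-fold lower (from 1.59 to 2.23), so that its interval also spans the cut-off. The intervals of Zc3h12a and Rc3h2 overlapped, and those of Rc3h1 and Rc3h2 did not with reads estimated from the longest transcripts. With the shortest coding transcripts, the log2 intervals of Rc3h1 (from -1.37 to -0.47) and Rc3h2 (from -2.11 to -1.28) overlapped. Rc3h1 made up 51.2% of the summed roquin level of 7.998 FPKM in the WT library and 64.4% of the 3.38 FPKM in the STAP-1 KO library.

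Elavl1 went the other way, with 48.2 FPKM in WT LSCs against 68.9 FPKM in STAP-1 KO LSCs, 1.43-fold higher (from 1.35 to 1.51) and below the cut-off. Its log2 ratio of 0.51 lay above that of 71.9% of expressed genes. Set against the level of Elavl1 in the same library, Zfp36 was 11.2 times as high in WT LSCs and 4.35 times as high in STAP-1 KO LSCs. The summed Zfp36 family was 14.6 times as high as Elavl1 in the WT library and 5.01 times in the STAP-1 KO library, and Khsrp 0.623 and 0.222 times.

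In the WT library the order from highest to lowest level was Zfp36, Zfp36l2, Elavl1, Khsrp, Zfp36l1, Zc3h12a, Rc3h1 and Rc3h2. The intervals of Khsrp and Zfp36l1 overlapped there, as did those of Rc3h1 and Rc3h2, and the other neighbours in the order were apart. In the STAP-1 KO library Elavl1 stood above Zfp36l2, and Rc3h1 above Zc3h12a, although the intervals of the latter pair overlapped. Those of Zc3h12a and Rc3h2 overlapped there too, and the other neighbours were apart. These intervals use the longest transcripts. With the shortest coding transcript, the STAP-1 KO value of Zfp36l1 rests on 3.601 estimated reads, and its place in the order was not tested there.

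Transcript length has to be set beside these ratios, because the log2 ratio of the libraries decreased with the length of the longest annotated transcript across 10865 genes (Spearman's rho of -0.37 across genes, which are not independent replicates). The members span transcripts from 2755 bases (Zc3h12a) to 11006 bases (Rc3h1). For the 211 genes within 20% of the length of Rc3h1, the median log2 ratio was -0.91, next to -0.88 for Rc3h1 itself, and 47.4% of them were at least 2-fold lower. For the 488 genes of like length to Rc3h2 (8948 bases), the median was -0.99 and 50.8% were at least 2-fold lower, and 28.3% had a log2 ratio below the -1.62 of Rc3h2. The values of the roquins thus lay within the range of other long transcripts.

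The other members stood farther from genes of their length. Among 2612 genes of like length to Zfp36l1 (2990 bases), the median was 0.09 and 3.29% had a lower log2 ratio. For Zfp36l2 (3530 bases) the median of like genes was -0.03 and 8.66% lay lower, and for Zc3h12a the median was 0.14 and 7.54% lay lower. Around Zfp36 (2790 bases) the median was 0.13 and 17.8% lay lower, and around Khsrp (3978 bases) it was -0.15 and 22.5% lay lower. The 1566 genes of like length to Elavl1 (5743 bases) had a median of -0.61, and 88.6% of them had a lower ratio than Elavl1.

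**Figure D2:**
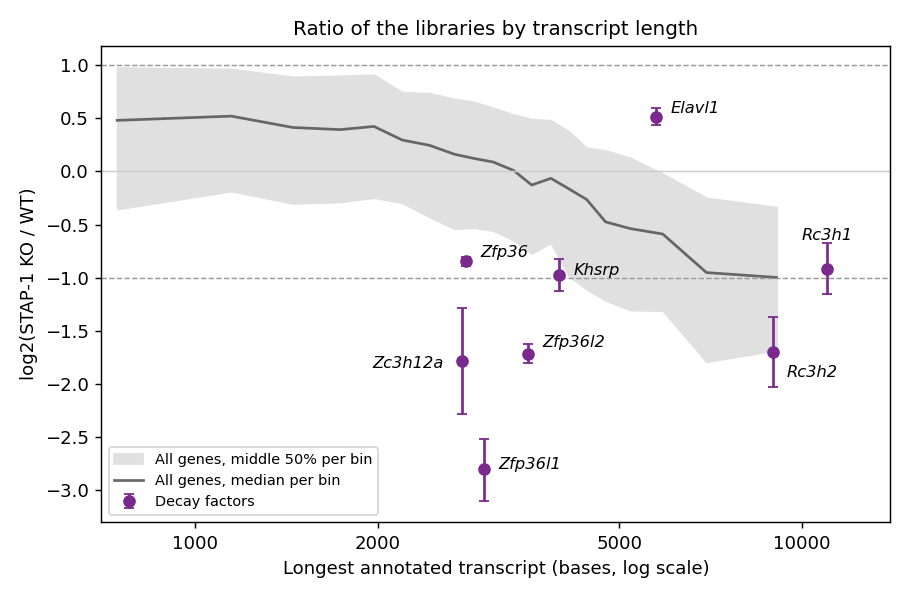
log2 ratio (STAP-1 KO over WT) of the 8 decay factors, without a pseudocount and with 95% counting intervals, against the length of the longest annotated transcript (bases, log scale). The line and band are the median and the middle 50% of all expressed genes in 20 bins of length at a pseudocount of 0.1 FPKM, and dashed lines mark 2-fold. Rc3h1 and Rc3h2 lie at the long end of the trend, Rc3h2 at the lower edge of the band, Elavl1 lies above it, Zfp36, Zfp36l1, Zfp36l2 and Zc3h12a lie below the band, and Khsrp lies near its lower edge.

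After the median ratio of genes of the same transcript length and GC content was subtracted from the ratios without a pseudocount, Zfp36l1 was 7.60-fold, Zc3h12a 3.13-fold, Zfp36l2 2.65-fold and Rc3h2 2.03-fold lower. Zfp36 was 1.73-fold, Khsrp 1.53-fold and Rc3h1 1.14-fold lower. Elavl1 was 2.04-fold higher and passed the cut-off, so that 4 members were lower and 1 was higher by this count, where 19.0% and 11.6% of the 12360 genes with a known length were. Rc3h2 sits at the cut-off and falls short of it with the pseudocount of 0.1 FPKM (log2 ratio of -0.95 after the correction), which leaves 3 lower. The part of transcript length in the values was not tested further.

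Markers of other cell types also differed between the libraries. Of 11 mast cell and basophil markers, 10 were at least 2-fold lower in STAP-1 KO LSCs, and their summed level was 51800 FPKM in WT LSCs against 5275 FPKM in STAP-1 KO LSCs (Mrgprb1 was listed at 0 in the WT library). All 6 neutrophil precursor markers were higher (summed level 571 and 4666 FPKM), and of 6 monocyte and macrophage markers 3 were lower and 1 was higher (179 and 57.7 FPKM). The 4 T cell markers summed to 14.8 and 48.1 FPKM, with 1 lower and 2 higher, and the B cell markers Ebf1 and Pax5 were listed at 0 in both libraries. The 6 stem and progenitor markers summed to 1049 and 345 FPKM, with 2 lower and none higher, and these 2 were genes of the sort itself, Kit (468 and 30.1 FPKM) and Ly6a, the Sca-1 gene (285 and 106 FPKM). No erythroid marker among 3 measured and 1 of 3 megakaryocyte markers (lower) was past the cut-off. Genes of the sex chromosomes differed as well: Xist was listed at 0 in the WT library and at 0.849 FPKM in the other, and the Y-linked genes Ddx3y (33.9 and 18.6 FPKM) and Eif2s3y (69.3 and 44.9 FPKM) had lower values without STAP-1. The part of these cell types and of any difference in sex between the mice in the values of the decay factors was not tested.

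Other RNA-binding proteins that act on the same elements did not share the direction of the decay factors as a group. Of 17 such genes, 12 could be compared, 2 were at least 2-fold lower and none was higher, and the median log2 ratio of the 11 expressed genes was 0.17. The shares to set beside this count and those of the lists below are 22.9% lower and 12.3% higher over all genes compared. The 2 that were lower were both relatives of Regnase-1. Zc3h12c had 3.51 FPKM in WT LSCs against 1.11 FPKM in STAP-1 KO LSCs, and Zc3h12d had 0.446 and 0.221 FPKM on about 13 and 9 estimated reads. After the correction for length and GC content neither was past the cut-off (log2 ratios of -0.89 and -0.56). N4bp1, which encodes another RNase that degrades mRNA, had 5.50 and 2.91 FPKM, a log2 ratio of -0.89 that turned to 0.10 after the correction. Ybx1, a cold-shock domain protein that binds mRNA, had 186 and 319 FPKM, Pcbp2, a poly(C)-binding protein, 25.7 and 42.5 FPKM, and the translational repressor Tia1 13.3 and 21.3 FPKM, all below the cut-off. Arid5a, Hnrnpd, Zc3h12d, Elavl2 and the genes listed at 0 were outside the naming rule and are given for their role or their call. Arid5a, whose product is known to oppose Regnase-1 on Il6 mRNA, had 9.34 and 10.5 FPKM, and Hnrnpd (AUF1) had 43.6 and 53.3 FPKM. Of the neuronal paralogues of HuR, Elavl3 and Elavl4 were listed at 0 in both libraries. Elavl2 had 0.077 FPKM in WT LSCs, on about 2.29 estimated reads, and was listed at 0 in STAP-1 KO LSCs.

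The deadenylases that the Zfp36 family and the roquins recruit, listed with the TOB/BTG adaptors, were mixed. Of 18 CCR4-NOT, TOB/BTG, PAN and PARN genes, 7 were at least 2-fold lower and none was higher. Of all genes compared, 22.9% were lower and 12.3% were higher. The median log2 ratio was -0.46, with 7 genes above 0. Btg1, which links deadenylases to mRNA and restrains proliferation, had 102 FPKM in WT LSCs against 19.4 FPKM in STAP-1 KO LSCs. The scaffold gene Cnot1 had 31.3 and 7.87 FPKM, the catalytic subunit gene Cnot6l 57.0 and 14.5 FPKM, and Tob1, an antiproliferative relative of Btg1, 44.2 and 12.9 FPKM. After the correction for length and GC content the log2 ratios of these 4 genes were -1.96, -1.05, -1.29 and -2.14. By the corrected ratios 5 of the 18 genes were lower and none was higher, beside 19.0% and 11.6% of all genes.

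After deadenylation, mRNA is degraded from either end. Of 15 genes of the RNA exosome and its cofactors, which degrade RNA from the 3′ end, 13 had a log2 ratio above 0, with 5 past the cut-off upwards and 2 downwards and a median of 0.78. Exosc8 had 83.1 FPKM in WT LSCs against 229 FPKM in STAP-1 KO LSCs, Exosc2 41.0 and 104 FPKM, and Exosc5 44.4 and 98.8 FPKM. The cofactor gene Ttc37, with a long transcript, had 11.96 and 4.91 FPKM. After the correction the median was 0.71, none was lower and 2 were higher, Exosc5 and, named after its values were seen, Exosc7 (log2 ratios of 1.86 and 1.10). Exosc8 and Exosc2 were then short of the cut-off at 0.95 and 0.96. Among 16 decapping and 5′ decay genes the median was 0.23, with 3 genes lower and 2 higher. Lsm3 (139 and 379 FPKM) and Lsm2 (70.6 and 189 FPKM), which encode subunits of the Lsm ring, were the 2 higher genes, and after the correction none of the 16 was past the cut-off. Dcps, the scavenger decapping enzyme, had 62.1 and 123 FPKM, and Edc4, a decapping scaffold, had 26.0 and 12.5 FPKM.

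Of 16 genes whose products modify or assist the decay factors, 3 were at least 2-fold lower and none was higher, with a median log2 ratio of -0.08. Of all genes compared, 22.9% were lower and 12.3% were higher. These 3 were Malt1, the protease that cleaves Regnase-1 and roquins (17.3 FPKM in WT LSCs against 4.92 FPKM in STAP-1 KO LSCs), Dusp1, the phosphatase that switches off p38 (989 and 376 FPKM), and Upf1, the helicase that works with Regnase-1 (46.0 and 21.9 FPKM). Dusp1 is also counted among the AU-rich targets below. After the correction 2 of the 16 genes were lower and 1 was higher, beside 19.0% and 11.6% of all genes. The log2 ratio of Upf1 was -1.07 as measured and -0.26 after the correction, and that of Ppp2ca, a catalytic subunit gene of the phosphatase PP2A that was named after its values were seen, was 0.50 and 1.23. Tbk1, an IKK-related kinase, had 55.4 and 32.8 FPKM. The kinase genes Mapk14 (p38; 135 and 83.5 FPKM) and Mapkapk2 (MK2, which phosphorylates tristetraprolin; 104 and 113 FPKM) were not past the cut-off and were added here for their role after their values were seen.

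**Figure D3:**
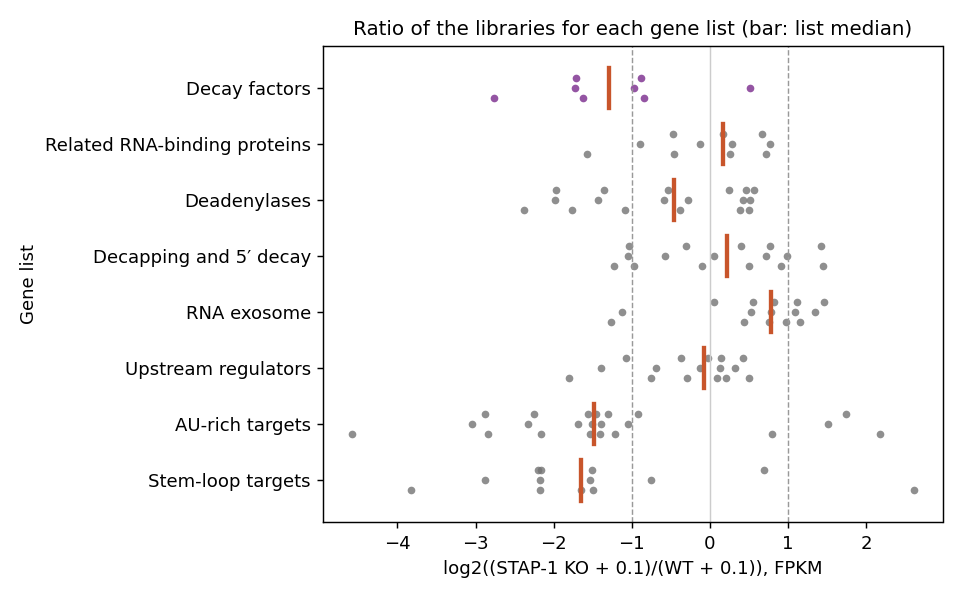
log2((STAP-1 KO + 0.1)/(WT + 0.1)) of each gene with a mean of at least 1 FPKM, by gene list, with the list median as a bar and 2-fold as dashed lines. The decay factors (median -1.30) and the target lists (medians -1.48 and -1.65) lie to the left, and the RNA exosome (median 0.78) lies to the right.

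The mRNAs that these proteins are known to act on were also mostly lower in the STAP-1 KO library. Of 28 AU-rich targets, 25 could be compared, 17 were at least 2-fold lower and 5 were higher, and the median log2 ratio of the 22 expressed genes was -1.48. The list of 16 stem-loop targets shares 6 genes with it (21.4% of the first list and 37.5% of the second) and had 10 genes lower and 2 higher of 14 compared, with a median of -1.65. Since the levels of the decay factors and of their targets come from the same 2 libraries, no relation between them can be measured.

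Single targets spanned a wide range. Ccl2, a monocyte chemokine, had 383 FPKM in WT LSCs against 15.8 FPKM in STAP-1 KO LSCs and has no nonamer in its 3′ UTR, while Lif, a cytokine of the IL-6 family with 2 nonamers, had 73.5 and 8.85 FPKM. Csf2 (GM-CSF), with 4 nonamers in a 3′ UTR of 317 bases, had 41.9 and 8.69 FPKM. The inflammatory cytokines Il6 (384 and 52.1 FPKM) and Il1b (199 and 39.5 FPKM) and the chemokine Ccl3 (485 and 67.3 FPKM) have none. Of the stem-loop targets, Nfkbiz, which encodes a nuclear IκB protein, had 151 and 33.2 FPKM, the prostaglandin synthase gene Ptgs2 24.8 and 5.48 FPKM, the early response gene Ier3 766 and 265 FPKM, the OX40 gene Tnfrsf4 5.92 and 1.21 FPKM, and Il2ra, the IL-2 receptor alpha chain gene, 346 and 24.3 FPKM. The genes that were higher were, for the AU-rich list, Il10, Ifng, Cxcl1, Cxcl10 and Myc, and, for the stem-loop list, Ctla4 and Cxcl1. Of these, Il10, Ifng and Cxcl1 rest on at most 26.1 estimated reads in either library. Il3, counted as lower, rests on about 5.21 and 1.97 reads, with a log2 interval from -5.21 to 0.79. At a floor of 1 FPKM, 15 AU-rich targets were lower and 2 were higher, and 9 stem-loop targets were lower and none was higher. Cxcl10 had 16.9 and 77.1 FPKM, and Ctla4 had 0.232 and 1.94 FPKM on about 3 and 35 estimated reads. Il3 and the genes that were higher were named after their values were seen.

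Expressed AU-rich targets were compared with and without the nonamer. The 10 genes with at least 1 nonamer had a median log2 ratio of -1.48, with 8 past the cut-off downwards, and the 12 genes without one had a median of -1.47, with 9 downwards and 3 upwards. After the correction the medians were -1.64 with the nonamer and -1.99 without it.

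Over all genes, the nonamer went with transcript length. The 9690 expressed genes without a nonamer had a median log2 ratio of -0.03, the 629 genes with 1 nonamer -0.40, the 105 genes with 2 nonamers -0.24 and the 66 genes with 3 or more -0.12 (rounded from -0.115). Genes without a nonamer had a median transcript of 3183 bases, and genes with 1 nonamer had one of 4461 bases. With the shorter motif TATTTAT in its place the medians were lower with each class, at 0.04 for none, -0.24 for 1, -0.36 for 2 and -0.51 for 3 or more, and the median transcript went from 2900 to 5148 bases. After the correction these 4 medians were 0.04, -0.04, -0.12 and -0.18. Expressed genes were then put into 4 bins of transcript length with nearly equal numbers. The medians of genes with and without a nonamer were 0.40 and 0.45 for the shortest transcripts (up to 2153 bases) and 0.07 and 0.16 from 2155 to 3277 bases. From 3278 to 4621 bases they were -0.17 and -0.15, and for longer transcripts -0.72 and -0.73.

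**Figure D4:**
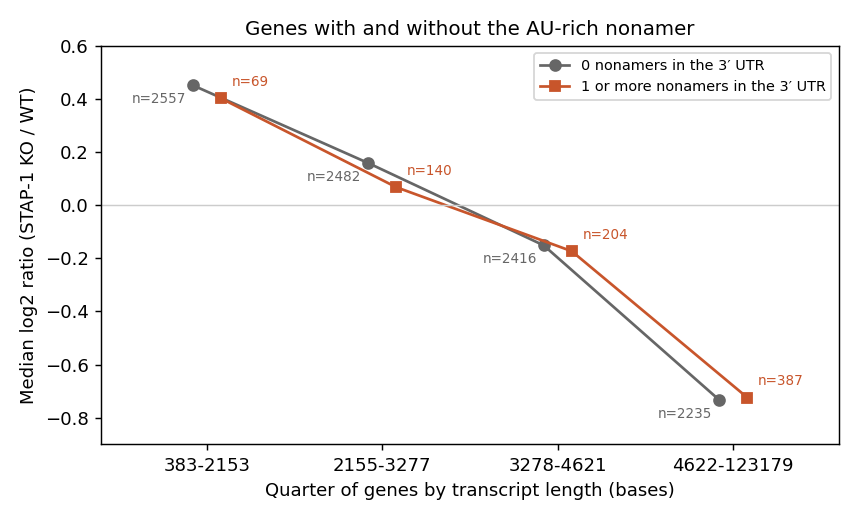
Median log2 ratio (STAP-1 KO over WT, pseudocount 0.1 FPKM) of expressed genes without (circles) and with (squares) the nonamer TTATTTATT in the 3′ UTR, in 4 bins of transcript length (bases), with the number of genes. The lines lie close together and go from 0.45 and 0.40 for the shortest transcripts to -0.73 and -0.72 for the longest.

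Promoters of 7 members were searched in windows of 300 bases from RefSeq (GRCm38.p6), which reach 250 bases before and 50 bases after the start of the gene. Zfp36l2 was not matched. The STAT-type motif TTCNNNGAA, which reads the same on both strands, was found once, in Zfp36, and in 8.30% of all 32851 windows. It is shown because STAT5 is the factor the study examined, with the motif in capitals, 17 bases before the RefSeq start. GENCODE M21 places the start of the gene farther upstream, at position 28380253, so that the motif lies inside the gene in that annotation.
Zfp36, chr7:28379227-28379255, minus strand: acagcctgacTTCTGCGAAccgacagtcg

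The NF-κB-type motif (GGG, any 2 bases, then TTTCC), on either strand, was in none of the 7 windows and in 1.63% of all windows, and the E-box CACGTG was in none of the 7 and in 7.15% of all. Binding was not measured.

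The deposited values cannot separate some members from genes that overlap them. The library kits do not mark the strand, and GENCODE M21 places Gm26669 on the opposite strand over 4967 bases of the Zfp36l1 gene, AC132455.1 over 2192 bases of Zfp36l2 and Gm44710 over 1274 bases of Zfp36, so that reads of either strand count alike. Ccl25 shares 204 bases with Elavl1 and had 4.66 and 4.03 FPKM.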

How the data were processed

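RNA-seq of 1 WT and 1 STAP-1 KO library was used. Per the labels and the study's methods, the authors made cDNA with SMART-Seq v4 and Nextera XT kits, mapped single reads to mm10 with TopHat2 2.0.13 and Bowtie2 2.2.3, and deposited FPKM values from Cuffnorm (Cufflinks 2.2.1); the SAMtools version is 0.1.19 in the submitters' processing notes. The gene annotation, the scaling and the read totals are not given in the sources used here. Ratios, counts and medians were computed in Python 3.11.15 (scipy 1.17.1, numpy 2.4.6, pandas 2.3.3, matplotlib 3.10.9) with a pseudocount of 0.1 FPKM for log2 ratios and medians. Folds, their intervals and counts past the 2-fold cut-off used no pseudocount, and counts a floor of 0.1 FPKM in both libraries. Expressed means a mean of at least 1 FPKM.

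Of the symbols, 20911 matched GENCODE M21 as written, 1901 through an older symbol and 472 not at all. Estimated reads are FPKM times the longest transcript less 212 (WT) or 208 (STAP-1 KO) bases times the effective depth. Depth and offset were chosen to bring the largest share of low values within 0.01 of whole numbers. At the chosen settings this share was 48.7% of 314 (WT) and 49.4% of 391 (STAP-1 KO). An even spread gives 2.0% at settings fixed in advance, so the share is no independent check of the fit. FPKM intervals are exact Poisson and ratio intervals exact binomial (Clopper-Pearson). The length and GC correction subtracted bin medians (20 bins each). The calls, the depth estimate and the correction were tested on simulated data.

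The members and lists were chosen with earlier results of these data known. Genes named are the members, Stap1 and, in each list, those with the largest absolute log2 ratio at a pseudocount of 1 FPKM (up to 6 in the lists of related proteins and of targets, otherwise up to 4), with the exceptions stated where they are named and, besides them, markers listed at 0 and sex-linked genes. A gene that this rule selects and a marker are not reported here. With 2 libraries no likeness of patterns between genes can be measured. The comparison with genes of like length (within 20%) and the searches for stem-loops and promoter motifs were added after the data were seen.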

Additional observations from a re-analysis of the deposited data

How the results depend on the processing

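The count of decay factors that were at least 2-fold lower was 4 as reported, with no floor, at a floor of 1 FPKM, after the correction for GC content and transcript length and under 2 of the 3 other scalings. It was 5 with Khsrp when totals without the 100 highest genes were made equal (24.3% of all genes compared), 7 at a fold cut-off of 1.5 (32.8%) and 1 at a fold cut-off of 4 (8.56%). The count that was higher was 0 as reported and 1 (Elavl1) after the correction. With the pseudocount of 0.1 FPKM kept, Rc3h2 is at -0.95 after the correction and not past the cut-off. The median log2 ratio of -1.30 ranged from -1.36 (equal totals) to -0.87 (after the correction). Equal totals moved the median of all genes from -0.04 to -0.11. Over 6 alternatives each, the log2 ratio ranged from -2.90 to -2.53 for Zfp36l1, -1.78 to -1.41 for Zfp36l2, -1.79 to -1.37 for Zc3h12a, -1.70 to -0.95 for Rc3h2, -1.04 to -0.61 for Khsrp, -0.91 to -0.79 for Zfp36, -0.95 to -0.15 for Rc3h1 and 0.45 to 1.03 for Elavl1, and none changed sign. With the shortest coding transcript of Zfp36l1, its STAP-1 KO value rests on 3.601 reads in place of 119, with a log2 interval from -4.67 to -1.02. Without replicate libraries the spread between mice is unknown for every value.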
